A study of Homo sapiens with 8 samples.

Results

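The collagen genes were the 43 genes whose name on the array reads COL, a number, the letter A and a number, out of 27363 genes. They were measured by 59 of the 34127 gene probes, and the probes of COL1A2, COL13A1 and COL15A1 were printed on 10 spots each. COL26A1, which the array still names EMID2, fell outside that rule and is given separately. The study silenced HOXB7, a homeobox transcription factor, in MIA PaCa-2 and Capan-1, which are cell lines of pancreatic ductal adenocarcinoma, and measured RNA on one-color Agilent arrays. Its 4 groups of 2 arrays were parental MIA PaCa-2 cells, MIA PaCa-2 cells 48 hours after transfection with a HOXB7-specific siRNA at 10 nM, parental Capan-1 cells, and Capan-1 cells transfected in the same way. Capan-1 came from a liver metastasis, and it was grown in another medium with a larger share of serum than MIA PaCa-2, so medium and cell line cannot be told apart. The lines were on separate slides, where siRNA samples took the first pair of positions and parental samples the last, so slide cannot be told apart from line or position from treatment. No array of cells given a scrambled siRNA was analysed here, and nothing says that the 2 arrays of a group came from separate cultures, so the p-values measure only the spread between arrays, which may be technical.

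Collagens are secreted or membrane-bound proteins whose chains wind around each other into a triple helix, a shape that requires glycine at every turn. Fibrillar collagens assemble into the tensile fibrils of connective tissue, type IV collagens form the sheet of basement membranes, type VI collagens form beaded filaments, fibril-associated collagens coat the fibrils, and transmembrane collagens stay in the cell surface. Pancreatic ductal adenocarcinoma is known for a stroma dense in fibrillar collagen, made mainly by stellate cells and fibroblasts, while carcinoma cells can make collagen chains too.

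Genes of type IV collagen lie head to head in pairs, and the bases between their start sites are shown because the members of such pairs differed in how far the lines stood apart. By RefSeq on build GRCh38.p14, the starts of COL4A1 and COL4A2 were 126 bases apart, those of COL4A3 and COL4A4 were 418 bases apart, and those of COL4A5 and COL4A6 were 379 bases apart. The whole stretch between COL4A2 and COL4A1 (chr13:110307158-110307283) and the 250 bases before the starts of COL4A4 (chr2:227164206-227164455, minus strand) and COL4A5 (chrX:108439588-108439837, plus strand) are printed from 5′ to 3′. Capitals mark CCAAT or its reverse complement ATTGG, and GGGCGG or its reverse complement CCGCCC. None of these, nor TATAAA or its reverse complement TTTATA, occurred in the COL4A4 stretch.
COL4A2 to COL4A1: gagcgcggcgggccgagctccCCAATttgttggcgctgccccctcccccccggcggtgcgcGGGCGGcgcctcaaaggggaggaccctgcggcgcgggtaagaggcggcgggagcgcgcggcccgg
COL4A4: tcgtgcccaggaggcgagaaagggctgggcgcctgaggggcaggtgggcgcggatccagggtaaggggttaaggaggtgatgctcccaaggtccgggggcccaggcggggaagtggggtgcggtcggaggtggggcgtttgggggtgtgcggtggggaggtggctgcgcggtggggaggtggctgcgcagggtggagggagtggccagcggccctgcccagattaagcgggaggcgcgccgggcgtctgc
COL4A5: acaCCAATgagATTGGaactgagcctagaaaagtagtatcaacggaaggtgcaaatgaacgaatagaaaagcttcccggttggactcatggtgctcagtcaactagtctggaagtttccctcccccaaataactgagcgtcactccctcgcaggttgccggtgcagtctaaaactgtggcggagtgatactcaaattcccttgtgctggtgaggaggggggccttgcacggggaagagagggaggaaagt

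Of the 43 collagen genes, 31 had a RefSeq window from 250 bases before to 50 bases after the start. On either strand, CCAAT occurred in 10 of the 31 windows (32.3%) against 35.7% of 27305 windows of all genes, TATAAA in 5 (16.1%) against 3264 of the 27305, and GGGCGG in 18 (58.1%) against 44.6%. These shares describe letters in a window and say nothing of a factor.

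The repeat that defines the family could be read in the array itself. In 2 of the 59 collagen probes, and in 7 of all 34127 gene probes, at least 5 glycine codons (GGN) stood in a row at a spacing of 9 bases. These were a probe of COL16A1 (hg18 chr1:31921123-31921182, minus strand) and the probe of COL9A1 (hg18 chr6:70983438-70983497, minus strand), printed as 60 bases with those glycine codons in capitals. They are shown because both matter below, where a pair of COL16A1 probes disagreed and where the COL9A1 difference lost its call under several ways of processing.
COL16A1 probe: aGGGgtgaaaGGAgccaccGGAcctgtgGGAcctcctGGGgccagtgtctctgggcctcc
COL9A1 probe: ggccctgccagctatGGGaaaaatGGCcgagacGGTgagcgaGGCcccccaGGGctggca

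Levels are log2 intensities relative to the 75th percentile of the gene probes on the same array, and they can be compared between arrays for one probe but not between probes. A probe is called detected on an array when at least 50% of its spots were well above background. HOXB7 itself stood at -4.82 and -4.09 on the parental MIA PaCa-2 arrays and was not detected on the siRNA arrays at -7.76 and -7.78, which is at least 2.85-fold lower (adjusted p = 0.0173). In Capan-1 it stood at -2.48 and -2.34 on the parental arrays and at -5.26 and -4.80 on the siRNA arrays, a log2 fold change of -2.62 ± 0.26 (SE) that missed the threshold (adjusted p = 0.121). Between 69.2% and 74.3% of the spots of an array were well above background, and no spot was saturated.

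Markers of cell types differed between the lines along with the collagens. All 8 epithelial markers were lower in MIA PaCa-2, and 6 of them were detected on both parental MIA PaCa-2 arrays and 8 of them on both parental Capan-1 arrays. EPCAM and CDH1, which define epithelial cells, were not detected in MIA PaCa-2, against EPCAM levels of 5.96 and 5.86 on the parental Capan-1 arrays. VIM, the intermediate filament of mesenchymal cells, stood at 7.87 and 8.01 in parental MIA PaCa-2 and at -1.01 and -1.11 in parental Capan-1, while of the 4 mesenchymal markers 2 were higher and 1, CDH2, was lower in MIA PaCa-2. Summed on the linear scale, the epithelial list reached 355 and 384 times the 75th percentile on the parental MIA PaCa-2 arrays, 345 on both of its siRNA arrays, 1343 and 1274 on the parental Capan-1 arrays, and 1385 and 1407 on its siRNA arrays. The 4 mesenchymal markers summed to 237 and 260 in parental MIA PaCa-2, 321 and 296 in its siRNA cells, 2.32 and 2.09 in parental Capan-1, and 2.06 and 2.37 in its siRNA cells. VIM alone made up nearly all of the parental MIA PaCa-2 sums, so they do not describe the whole list. Such sums add unlike probes and follow the brightest of them. PDGFRA, PDGFRB, THY1, FAP and LUM, 5 of the 8 markers of fibroblasts and stellate cells, were not detected on any of the 8 arrays, and that list summed to 1.25 and 1.11 in parental MIA PaCa-2, 1.27 and 1.24 in its siRNA cells, 0.716 and 0.618 in parental Capan-1, and 0.692 and 0.600 in its siRNA cells. The other 3 markers of that list, ACTA2, DES and DCN, were detected on both parental MIA PaCa-2 arrays, and 2 of them on both parental Capan-1 arrays. Among these 3, 1 was higher and 0 were lower in parental MIA PaCa-2, with a median log2 difference of 0.70. On the siRNA arrays 2 were higher. Of the other lists, 1 of 2 tested endothelial markers and 2 of 4 leukocyte markers were higher in MIA PaCa-2, and 1 leukocyte marker and both tested acinar markers (2) were lower. Beside each of these lists, 40.1% of all genes tested were higher and 31.7% lower. After siRNA in MIA PaCa-2, 1 of 6 tested epithelial markers was lower (1.12% of all genes) and 1 of 4 leukocyte markers was higher (1.17%). In Capan-1 no marker passed after siRNA. The part of these markers in the collagen differences was not tested. In such bulk RNA, fewer cells that express a gene and less of its RNA per cell cannot be told apart.

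Collagen probes were detected less widely than the average probe of the array. Both parental MIA PaCa-2 arrays detected 33 of the 59 (55.9%, against 66.9% of all gene probes) and both siRNA arrays of that line 36 (61.0% against 68.4%). In Capan-1, 30 were detected in parental cells (50.8% against 67.3%) and 30 in siRNA cells (50.8% against 67.1%). All 8 arrays detected 24 probes of 20 genes. A further 7 probes were detected on all 4 MIA PaCa-2 arrays and on no Capan-1 array, which were those of COL3A1, COL13A1, COL17A1, COL24A1 and COL6A3, 1 of 3 probes of COL5A1 and 1 of 2 probes of COL6A2. The reverse held for 3 probes, of COL4A5, COL12A1 and COL19A1. For 6 genes no probe was detected on any array. They were the cartilage chains COL2A1 and COL11A1, the type IV chains COL4A3 and COL4A6, the basement membrane zone collagen COL15A1, and COL22A1.

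**Figure D1:**
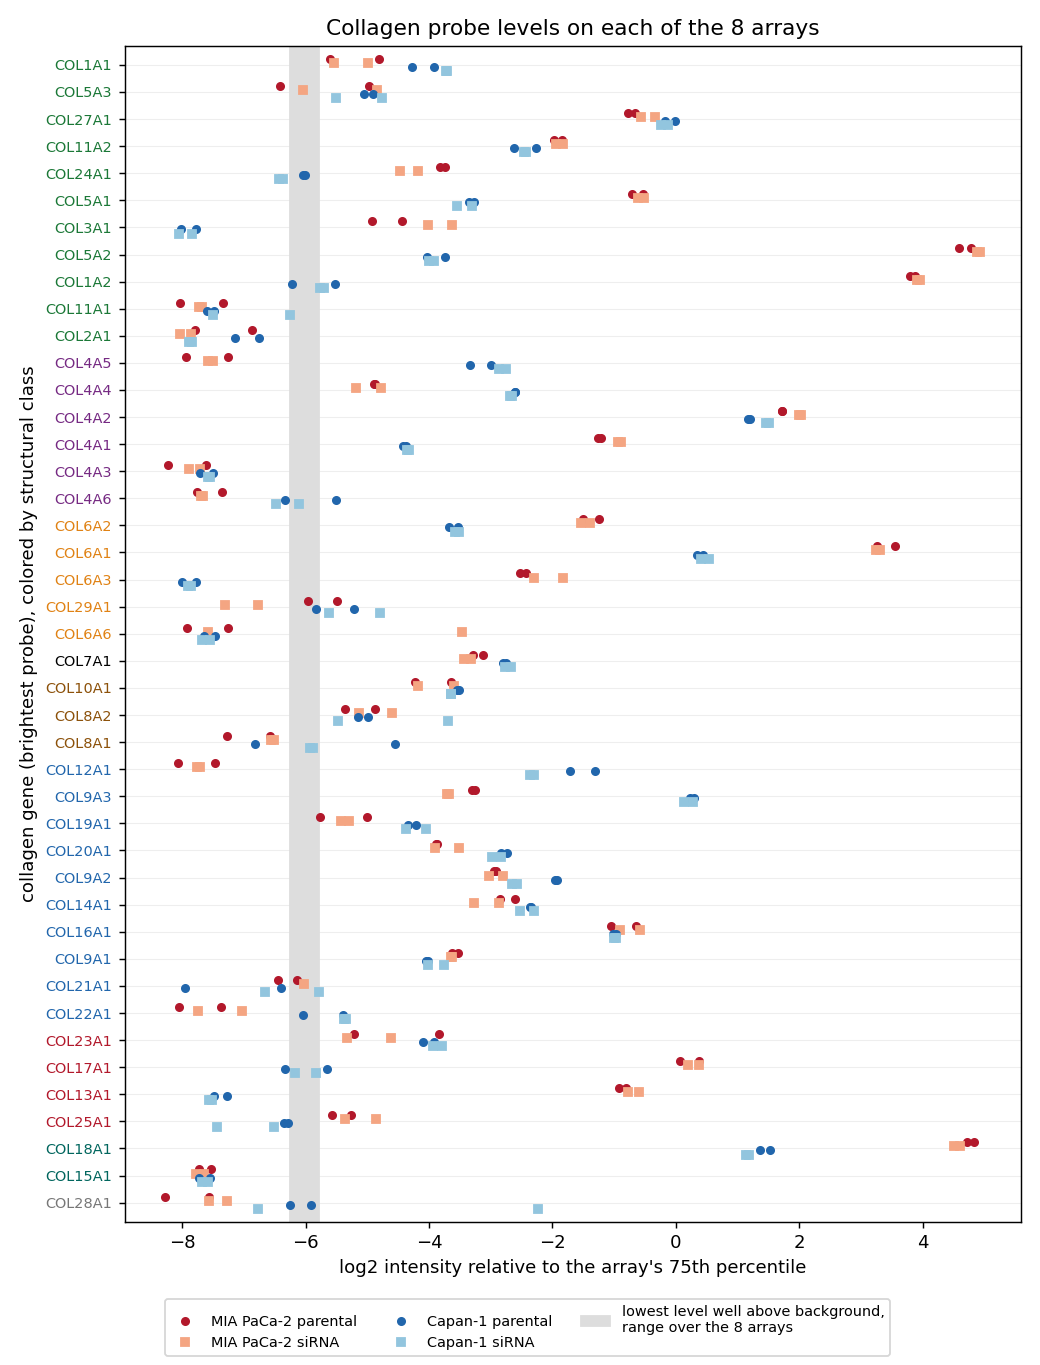
Log2 intensity relative to the array's 75th percentile (x axis) of the brightest probe of each of the 43 collagen genes (y axis, colored by structural class), with 1 point for each of the 8 arrays. The gray band is the range over arrays of the lowest level well above background. Levels compare along a row and not between rows. COL1A2, COL5A2 and COL6A3 lie to the right in MIA PaCa-2 (red) and COL12A1 and COL4A5 to the right in Capan-1 (blue), while siRNA points (squares) lie close to the parental points (circles) of their line.

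The parental lines differed in most collagen genes that could be tested, in both directions. A probe was tested when either of the groups compared detected it on both arrays, which left 39 probes of 31 genes. By limma, 14 of the 31 genes were higher in MIA PaCa-2 (45.2%, against 40.1% of the 20176 genes tested on the array) and 9 were lower (29.0%, against 31.7%). In 3 genes, COL11A2, COL20A1 and COL27A1, probes passed in opposite directions (1.34% of all genes tested), and 5 genes (COL5A3, COL8A2, COL10A1, COL14A1 and COL23A1) did not pass. With scaling to the spike-in probes the collagen counts were 12 higher and 10 lower, and the array's 8086 higher and 6400 lower genes became 5417 and 6432. The collagen shares were near those of the array as a whole, so the number of collagen genes that differed did not set them apart. With the 4 parental arrays, an exact two-sided permutation test of 2 against 2 cannot go below 0.333, so single genes rest on the model across all genes.

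Fitted sizes of the tested collagen genes were larger than the array's under the scanner software's background subtraction. That holds with a filter that also admits genes detected in 1 line alone. The median absolute log2 difference was 2.23 over the 31 genes, each by its brightest probe, against 0.77 over all genes, while the signed medians were 0.15 and 0.10. A log2 difference past 3, a size chosen after the values were seen, was reached by 9 genes that were higher in MIA PaCa-2 (29.0%, against 3.08% of all genes) and by 3 that were lower (9.68%, against 6.16%). The 9 were COL1A2, COL3A1, COL4A1, COL5A2, COL6A1, COL6A3, COL13A1, COL17A1 and COL18A1, and the 3 were COL4A5, COL9A3 and COL12A1. Of these, COL1A2, COL3A1, COL4A5, COL6A3, COL12A1, COL13A1 and COL17A1 were not detected on every array of 1 line. Their fitted sizes are thus set against signal near or below background. A probe detected in 1 line alone was tested through that line, so the filter itself admits large gaps. How much of the excess in size this makes up was not tested. For the 24 collagen probes detected on all 8 arrays, the signed median log2 difference was 0.115, against 0.119 over all such probes. Absolute medians were not computed for them. The bounds given below for COL3A1 and COL4A5 fall short of a log2 difference of 3. All 12 were called in the same direction under 19 of 20 other ways of processing, and 5 of them under the remaining one, which tested only probes detected on all 8 arrays. These calls concern direction and not size, for genes chosen by size in the same data. Settings that took the brightest probe or left out an siRNA array kept the same fitted differences, so the calls are no independent support. The sizes, and the "at least" folds, hold for background subtraction as the scanner software did it. Normexp background correction with an offset of 50 gave smaller differences for dim probes, below several of those folds. With it most of the 12 genes fell below an absolute log2 difference of 3, and its values are given below for each of them except COL18A1.

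**Figure D2:**
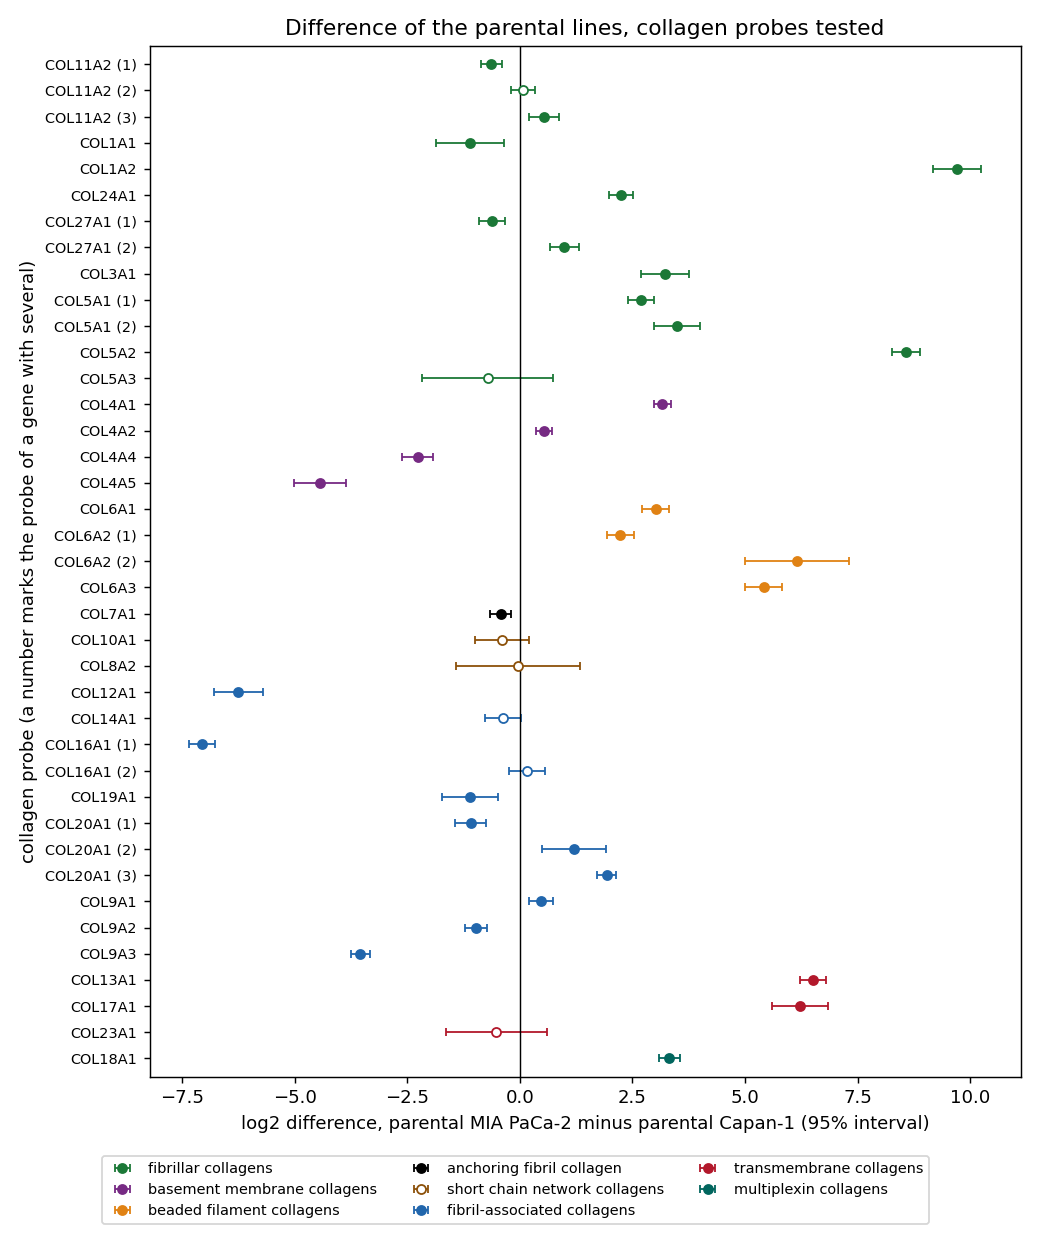
Log2 difference of parental MIA PaCa-2 minus parental Capan-1 (x axis) with its 95% interval for the 39 collagen probes tested (y axis), colored by class. Filled points passed an adjusted p of 0.05 by limma. Fibrillar, beaded filament and transmembrane probes reach from 2.23 to 9.71 on the right for COL1A2, COL3A1, COL5A1, COL5A2, COL6A1, COL6A2, COL6A3, COL13A1, COL17A1 and COL24A1, and COL12A1, COL4A5 and a COL16A1 probe lie furthest to the left.

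Among the fibrillar collagens tested, more genes were higher than lower in MIA PaCa-2. Of 11 genes, 9 were tested, 5 were higher in MIA PaCa-2, 1 was lower and 2 had probes in both directions. For this class and those that follow, the array's own shares were 40.1% of genes higher and 31.7% lower. The median log2 difference of the 9 was 2.24 against 0.10 over all genes. Genes detected in 1 line alone, such as COL3A1 and COL24A1, were tested through that line. COL1A2 (hg18 chr7:93896579-93896638), the second chain of type I collagen, stood at 3.79 and 3.87 on the parental MIA PaCa-2 arrays and at 3.96 and 3.91 on its siRNA arrays. In Capan-1 its levels were -6.23 and -5.53 in parental cells, detected on 1 of 2 arrays, and -5.77 and -5.71 in siRNA cells, detected on both. No Capan-1 array came near a MIA PaCa-2 array, and the parental log2 difference was 9.71 ± 0.22 (SE), adjusted p = 6.32e-07 (6.001 with normexp correction). COL1A1, whose chain pairs with that of COL1A2 in type I collagen, went the other way. It stood at -4.82 and -5.60 in parental MIA PaCa-2, detected on 1 of 2 arrays, and at -4.28 and -3.91 in parental Capan-1. These groups did not overlap, and the log2 difference was -1.11 ± 0.31 (adjusted p = 0.018). That call was lost without MIA PaCa-2 parental replicate 2 (-0.72, adjusted p = 0.0760), without Capan-1 parental replicate 2 (-0.93, adjusted p = 0.0905) and with normexp background correction (-0.16, adjusted p = 0.141).

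Type V collagen, which is incorporated into type I fibrils and governs how they start, was higher in MIA PaCa-2 for both chains that define its common form. COL5A2 (hg18 chr2:189605674-189605733) stood at 4.59 and 4.79 in parental MIA PaCa-2 and at -4.04 and -3.75 in parental Capan-1. Its siRNA arrays read 4.93 and 4.88 in MIA PaCa-2 and -4.00 and -3.92 in Capan-1. The line gap held on every array, with a parental log2 difference of 8.58 ± 0.13 (adjusted p = 2.73e-07), or 6.49 with normexp correction. COL5A1 by its brightest probe stood at -0.53 and -0.71 against -3.28 and -3.35 in the parental cells, a log2 difference of 2.69 ± 0.12 (adjusted p = 6.88e-06). A second COL5A1 probe was detected only in MIA PaCa-2, at -3.93 and -4.22, where it was at least 4.42-fold higher (adjusted p = 2.56e-05). With normexp correction the COL5A1 log2 differences were 1.61 and 0.35. COL5A3, another chain of this type, stood at -4.97 and -6.42 against -4.90 and -5.05 and did not pass (-0.72 ± 0.59, adjusted p = 0.313).

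COL3A1, the reticular fibril collagen that mixes with type I, was detected in MIA PaCa-2 alone, at -4.92 and -4.44 in parental cells. Its Capan-1 arrays read -7.78 and -8.02, so it was at least 2.90-fold higher in MIA PaCa-2 (adjusted p = 3.82e-05). COL24A1, a minor fibrillar collagen, stood at -3.82 and -3.74 in parental MIA PaCa-2 and was not detected in Capan-1, at least 4.74-fold higher (adjusted p = 1.20e-05). Neither gene overlapped between the lines on any array. With normexp correction their log2 differences were 0.33 and 0.36, both still past the threshold. COL11A2 and COL27A1 gave no single direction, as set out with the other genes whose probes disagreed.

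Basement membrane collagens split within the family. Of 6 type IV genes, 4 were tested, with 2 higher and 2 lower in MIA PaCa-2 and a median of -0.87. COL4A1, one of the classical chains found in nearly every basement membrane, stood at -1.26 and -1.21 in parental MIA PaCa-2 and at -4.37 and -4.43 in parental Capan-1. COL4A2, its head-to-head neighbor and partner in the same trimer, stood at 1.72 and 1.71 against 1.20 and 1.17. The groups of either gene did not overlap, yet the log2 difference was 3.16 (95% interval 2.97 to 3.35, adjusted p = 8.41e-07) for COL4A1 and only 0.53 (0.35 to 0.72, adjusted p = 0.0011) for COL4A2, which lost its call when arrays were scaled to the spike-in probes (0.32, adjusted p = 0.246). With normexp correction the COL4A1 log2 difference was 1.31.

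The tissue-restricted type IV chains lay lower in MIA PaCa-2. COL4A5, the X-linked chain altered in Alport syndrome, was not detected in MIA PaCa-2 at -7.94 and -7.26, and stood at -3.33 and -2.99 in parental Capan-1, at least 7.43-fold higher there (adjusted p = 1.49e-05). COL4A4 stood at -4.88 and -4.89 in parental MIA PaCa-2 and at -2.61 on both parental Capan-1 arrays, a log2 difference of -2.27 ± 0.14 (adjusted p = 2.68e-05). With normexp correction the log2 differences were -0.60 for COL4A5 and -0.68 for COL4A4. Their neighbors COL4A6 and COL4A3 were not detected anywhere. In each of the 3 head-to-head pairs, then, the partners differed either in the size of the gap or in detection.

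Type VI collagen was higher in MIA PaCa-2 for all 3 of its classical chains, which were also the genes tested among 5 of this class. COL6A1 stood at 3.55 and 3.26 in parental MIA PaCa-2 against 0.34 and 0.43 in parental Capan-1, a log2 difference of 3.02 ± 0.12 (adjusted p = 4.88e-06). COL6A2 stood at -1.24 and -1.51 against -3.54 and -3.68 by its brightest probe, 2.23 ± 0.12 (adjusted p = 1.71e-05), and its second probe, undetected in Capan-1, was at least 45.3-fold higher (adjusted p = 6.98e-05). COL6A3, the longest of these chains, was detected in MIA PaCa-2 alone, at -2.53 and -2.43, at least 13.4-fold higher (adjusted p = 2.06e-06). The lines did not overlap for any of the 3 chains. Normexp correction gave log2 differences of 2.83 for COL6A1, 0.93 and 1.99 for the COL6A2 probes and 1.03 for COL6A3. COL29A1, which RefSeq now names COL6A5, was detected on 3 single arrays of 3 groups and was not tested. COL6A6 was detected on MIA PaCa-2 siRNA replicate 1 alone, at -3.46, with every other array between -7.25 and -7.93.

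Among the fibril-associated collagens tested, more genes were lower than higher in MIA PaCa-2. Of 10 genes, 8 were tested, 5 were lower in MIA PaCa-2, 1 was higher and 1 had probes in both directions. The array's own shares were 31.7% lower and 40.1% higher. The median was -1.04 by the brightest probes. COL12A1 and COL19A1 were tested through Capan-1, which alone detected them. The 5 include COL16A1, called through its dimmer probe alone, while its brightest probe did not pass, as set out below. COL12A1, which bridges fibrils in tissue under load, stood at -1.31 and -1.72 in parental Capan-1 and was not detected in MIA PaCa-2 at -8.06 and -7.48, at least 23.3-fold lower there (adjusted p = 3.11e-06). COL9A3, a chain of cartilage type IX collagen, stood at 0.30 and 0.23 in parental Capan-1 against -3.26 and -3.30 in parental MIA PaCa-2, a log2 difference of -3.54 ± 0.09 (adjusted p = 9.01e-07). These gaps spanned all 8 arrays, but with normexp correction the log2 differences were -1.51 for COL12A1 and -2.12 for COL9A3. COL9A2 stood at -1.97 and -1.92 in parental Capan-1 and at -2.91 and -2.94 in parental MIA PaCa-2 (-0.98 ± 0.10, adjusted p = 0.000237, or -0.47 with normexp correction). COL19A1 was detected in Capan-1 alone, at -4.21 and -4.33, at least 2.16-fold higher there (adjusted p = 0.00874), a call lost with normexp background correction (-0.19, adjusted p = 0.142).

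The 3 chains of type IX collagen did not move together. COL9A1, which joins COL9A2 and COL9A3 in one trimer, was slightly higher in MIA PaCa-2 at -3.62 and -3.53 against -4.02 and -4.06, a log2 difference of 0.46 ± 0.11 (adjusted p = 0.00975). It lost the call without Capan-1 parental replicate 2 (0.45, adjusted p = 0.0514), with normexp correction (0.07, adjusted p = 0.553), without scaling (0.49, adjusted p = 0.0549) and with spike-in scaling (0.26, adjusted p = 0.348). COL14A1, which coats fibrils in skin and tendon, stood at -2.61 and -2.85 against -2.36 and -2.35 and did not pass (-0.37 ± 0.17, adjusted p = 0.0864). With normexp correction it was called lower in MIA PaCa-2, and without the filter on dim probes higher, through its undetected probe. Between the siRNA cells it was lower in MIA PaCa-2 (-0.66 ± 0.17, adjusted p = 0.0120). COL21A1 was not tested, since no group detected it on both arrays. Its outlier flag was on MIA PaCa-2 siRNA replicate 1, outside the parental comparison.

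Transmembrane collagens were detected mainly in MIA PaCa-2. COL17A1, the hemidesmosome collagen of epithelia, stood at 0.07 and 0.38 in parental MIA PaCa-2 and was not detected in Capan-1 at -5.65 and -6.34, at least 72.3-fold higher in MIA PaCa-2 (adjusted p = 5.33e-06). COL13A1, found at cell-matrix junctions, stood at -0.81 and -0.92 and was not detected in Capan-1 at -7.48 and -7.27, at least 40.8-fold higher in MIA PaCa-2 (adjusted p = 3.52e-07). With normexp correction the log2 differences were 2.51 for COL17A1 and 1.88 for COL13A1. Both gaps held on all 8 arrays, and that of COL17A1 ran opposite to the epithelial markers EPCAM and CDH1. COL23A1 stood at -5.22 and -3.83 against -4.10 and -3.91 and did not pass (-0.52 ± 0.46, adjusted p = 0.346). COL25A1 was detected on 3 MIA PaCa-2 arrays and on no Capan-1 array and was not tested between the parental lines.

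COL18A1, a basement membrane proteoglycan core whose end is released as endostatin, stood at 4.83 and 4.72 in parental MIA PaCa-2 and at 1.53 and 1.37 in parental Capan-1. The log2 difference was 3.32 ± 0.10 (adjusted p = 1.49e-06), with no overlap. COL7A1, the anchoring fibril collagen beneath epithelia, differed little, at -3.12 and -3.29 against -2.75 and -2.80 (-0.43 ± 0.10, adjusted p = 0.00839). It lost the call without Capan-1 parental replicate 1 (-0.40, adjusted p = 0.0516), without scaling (-0.40, adjusted p = 0.127) and with normexp correction (-0.17, adjusted p = 0.118).

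The short chain network collagens showed no difference that passed. COL10A1, known from growth plate cartilage, gave -0.40 ± 0.25 (adjusted p = 0.198) and COL8A2 gave -0.04 ± 0.56 (adjusted p = 0.952), with 95% intervals of -1.01 to 0.21 and -1.42 to 1.34. COL8A1 was detected on Capan-1 parental replicate 2 alone, at -4.55. COL28A1 was detected on Capan-1 siRNA replicate 1 alone, at -2.23, with the other arrays between -5.92 and -8.27. COL26A1, outside the naming rule, stood at -2.70 and -2.62 in parental MIA PaCa-2 and at -4.93 and -3.96 in parental Capan-1, a log2 difference of 1.78 ± 0.31 (adjusted p = 0.00253).

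Probes of 1 gene could disagree on which line was higher, and COL16A1 was the extreme case. One probe (hg18 chr1:31890762-31890821) stood at 1.43 and 1.23 in parental Capan-1 and at -5.71 and -5.76 in parental MIA PaCa-2, where 1 of 2 arrays detected it, a log2 difference of -7.06 ± 0.11 (adjusted p = 3.14e-07), or -3.71 with normexp correction. The other, the glycine-rich probe printed above, was detected on all 8 arrays and read between -1.04 and -0.59 on each of them. Its parental log2 difference was 0.15 (95% interval -0.25 to 0.55, adjusted p = 0.435). Thus 1 probe separated the lines fully and the other did not.

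In COL20A1, a fibril-associated collagen, 1 probe was lower in MIA PaCa-2 (-1.09 ± 0.14, adjusted p = 0.000707) and the other 2 were higher (1.93 ± 0.09, adjusted p = 8.31e-06, and 1.20 ± 0.29, adjusted p = 0.0111). With normexp correction the lower probe gave -0.40 and the probe at 1.93 gave 0.45. The probe at 1.20 lost its call without MIA PaCa-2 parental replicate 1 (1.11, adjusted p = 0.0556) and with normexp correction (0.19, adjusted p = 0.108). COL27A1 had a probe at -0.62 ± 0.12 (adjusted p = 0.00371) and one at 0.99 ± 0.13 (adjusted p = 0.000794). COL11A2 had probes at -0.63 ± 0.10 (adjusted p = 0.00153), 0.08 ± 0.11 (adjusted p = 0.551) and 0.53 ± 0.13 (adjusted p = 0.0123). No direction is therefore given for these 3 genes. In COL6A3, COL9A2, COL12A1, COL14A1, COL8A2 and COL19A1, by contrast, every probe other than the one described was not detected on any array.

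**Figure D3:**
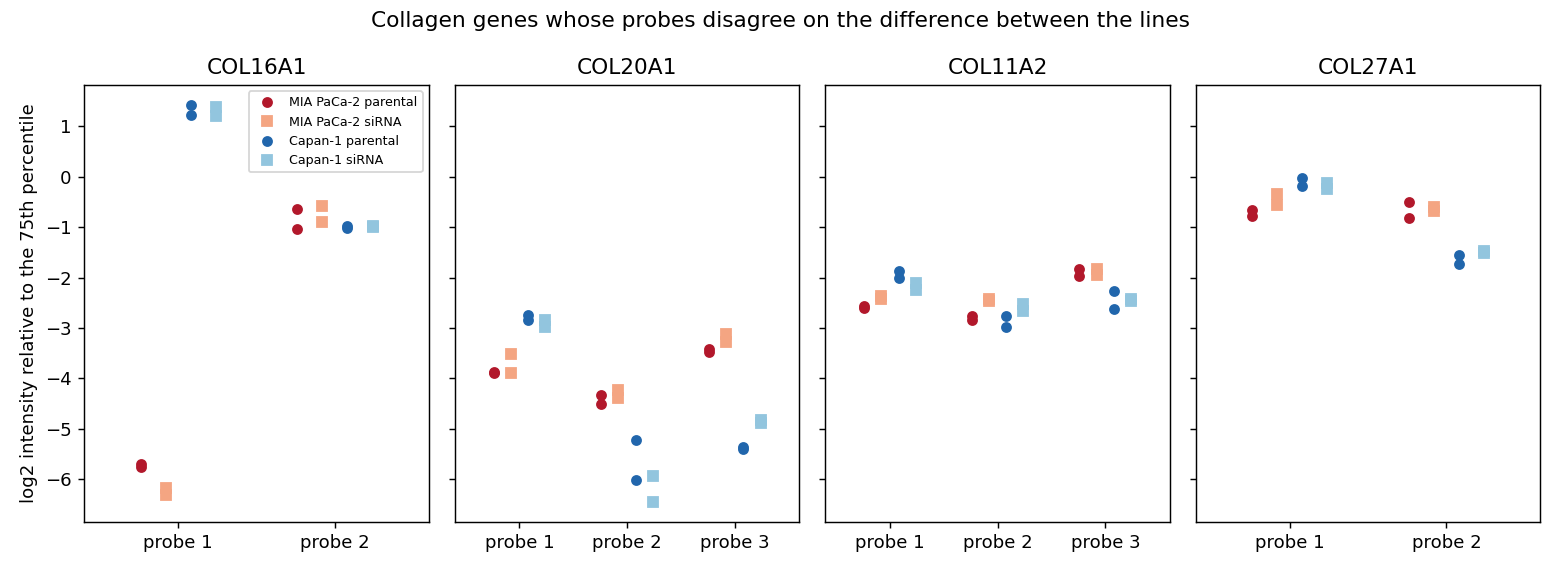
Log2 intensity relative to the array's 75th percentile (y axis) on the 8 arrays for each probe (x axis) of 4 collagen genes whose probes disagree on the difference between the lines. For COL16A1, probe 1 separates Capan-1 (blue) from MIA PaCa-2 (red) (log2 difference -7.06) and probe 2 reads between -1.04 and -0.59 on all arrays. For COL20A1, COL11A2 and COL27A1 the order of the lines turns between probes.

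The line difference was also taken on the siRNA arrays, which are other arrays of the same lines. There 16 of 31 genes were higher in MIA PaCa-2 (51.6%, against 41.1% of all genes), 10 were lower (32.3%, against 30.7%) and 1 had probes in both directions (1.45% of all genes). Of the 23 genes with 1 direction between the parental lines, 22 had the same direction here, which is 95.7% of the former and 84.6% of the 26 with 1 direction here. The exception was COL9A1 (0.25 ± 0.11, adjusted p = 0.0855). The same overlap over all genes was not computed. Most genes of the array differed between these lines in both comparisons, so a high overlap says nothing particular about collagens. COL1A2 differed by 9.67 ± 0.22 (adjusted p = 6.39e-07) and COL5A2 by 8.86 ± 0.13 (adjusted p = 2.53e-07) between the siRNA cells.

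HOXB7 siRNA left no collagen gene past the threshold in MIA PaCa-2. Of 28 genes (36 probes) tested by limma, 0 were lower (against 1.12% of 19222 genes on the array), 0 were higher (against 1.17%) and 0 had probes in both directions (against 0.0052%). At an unadjusted p under 0.05 there were 2 probes lower and 5 higher, and the interval of the parental pair, a rule after the study's own methods that 5 collagen genes could meet, called 0. Log2 fold changes of the genes ran from -0.54 to 0.86, and 17 of 28 were above 0 (60.7%, against 53.2% of all genes), a split that depends on the scaling. Their median absolute log2 fold change was 0.18, against 0.17 over all genes.

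Values in MIA PaCa-2 were as follows for the genes of largest change. COL3A1 stood at -4.92 and -4.44 on the parental arrays and at -3.62 and -4.02 on the siRNA arrays, without overlap, a log2 fold change of 0.86 ± 0.21 (adjusted p = 0.103). COL24A1 stood at -3.82 and -3.74 and then at -4.18 and -4.47, without overlap, -0.54 ± 0.11 (adjusted p = 0.0728). COL23A1 stood at -5.22 and -3.83 and then at -5.32 and -4.62, with overlap, -0.44 ± 0.46 (adjusted p = 0.642). Among smaller changes at an unadjusted p under 0.05, COL9A3 gave -0.42 ± 0.09 (adjusted p = 0.0769), and the neighbors COL4A1 and COL4A2 gave 0.32 ± 0.08 (adjusted p = 0.0976) and 0.29 ± 0.08 (adjusted p = 0.111). The lowest adjusted p of the family was thus 0.0728, for COL24A1. For COL1A2 and COL5A2 the values were 0.10 ± 0.22 (adjusted p = 0.844) and 0.21 ± 0.13 (adjusted p = 0.408).

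In Capan-1, too, no collagen gene passed. Of 26 genes (31 probes), 0 were lower (against 0% of 18938 genes) and 0 were higher (against 0.00528%). At an unadjusted p under 0.05 there were 4 probes lower and 3 higher, and the interval of the parental pair called 0 of the 4 genes it could reach, with 1 probe of COL12A1 below it. COL12A1 stood at -1.31 and -1.72 on the parental arrays and at -2.30 and -2.37 on the siRNA arrays, without overlap, a log2 fold change of -0.82 ± 0.22 (adjusted p = 0.296). COL9A2 stood at -1.97 and -1.92 and then at -2.57 and -2.65, without overlap, -0.67 ± 0.10 (adjusted p = 0.151, the lowest of the family). COL8A2 stood at -5.15 and -4.99 and then at -3.70 and -5.48, with overlap, 0.49 ± 0.56 (adjusted p = 0.755).

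The test of the difference between the siRNA responses of the lines called 0 of 32 collagen genes in either direction (against 0.00485% of 20629 genes in each). At an unadjusted p under 0.05 there were 2 probes with a lower and 4 with a higher response in MIA PaCa-2. COL9A2 had the lowest adjusted p, changing by 0.01 ± 0.10 (log2) in MIA PaCa-2 and by -0.67 ± 0.10 in Capan-1, with a difference of 0.68 ± 0.14 (adjusted p = 0.200). COL4A2, by contrast, gave 0.29 ± 0.08 and 0.30 ± 0.08 in the respective lines (difference -0.01 ± 0.11, adjusted p = 0.987).

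**Figure D4:**
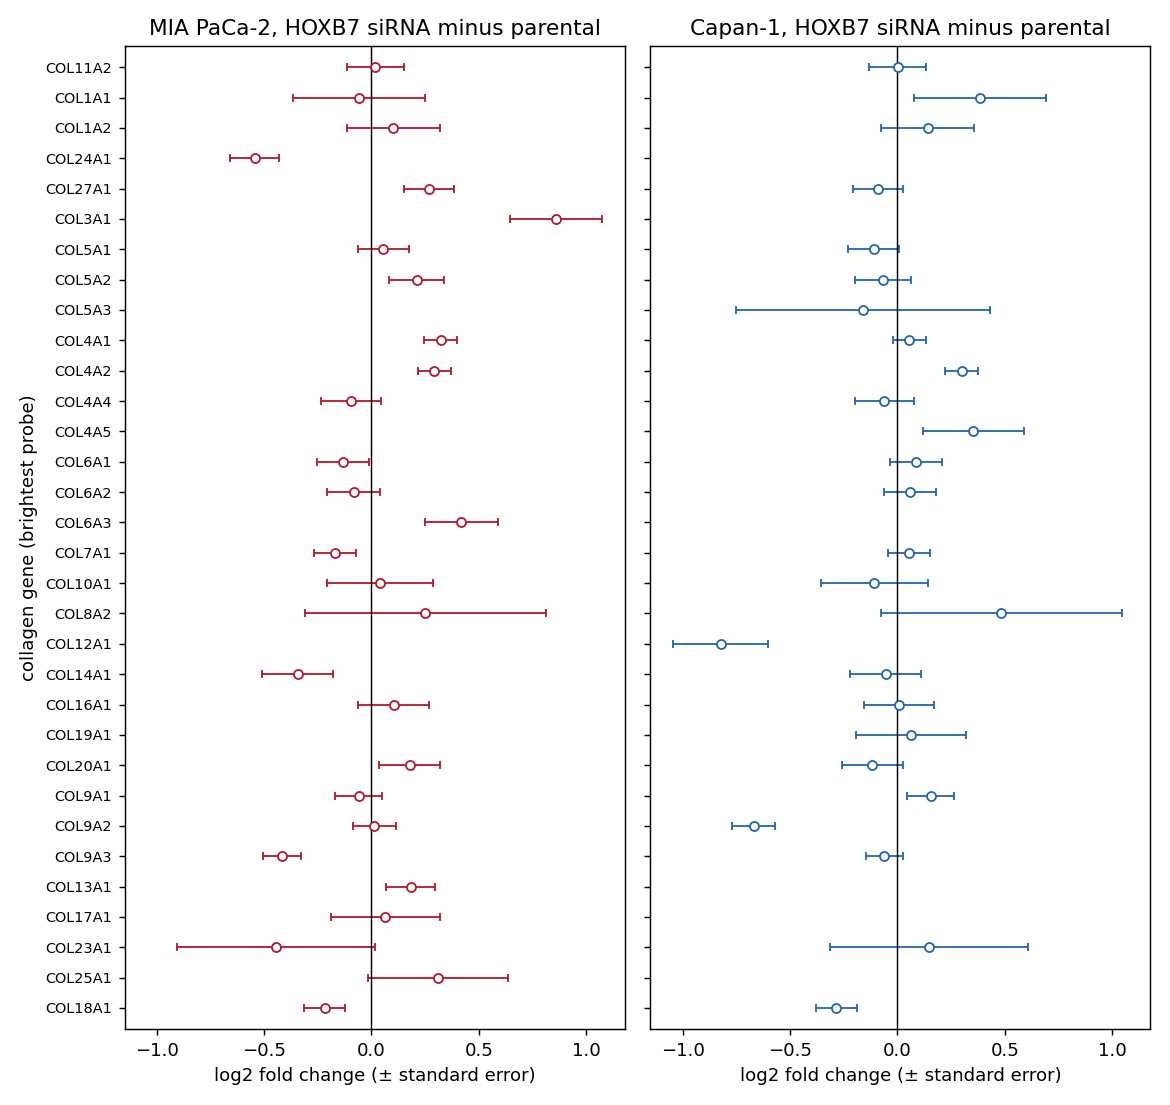
Log2 fold change of HOXB7 siRNA over parental cells (x axis) with its standard error, for the brightest probe of each collagen gene tested (y axis), in MIA PaCa-2 on the left and Capan-1 on the right. Open points did not pass an adjusted p of 0.05, which holds for all of them. COL3A1 (0.86) and COL24A1 (-0.54) lie furthest out in MIA PaCa-2 and COL12A1 (-0.82) and COL9A2 (-0.67) in Capan-1.

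Genes that act on collagen chains after their synthesis differed between the parental lines as well. For this list and the following ones, the array's own shares were 40.1% of genes higher and 31.7% lower in MIA PaCa-2. Of 18 tested genes for hydroxylation, glycosylation and folding, 12 were higher and 4 were lower in MIA PaCa-2, with a median of 0.63 against 0.10 over all genes. FKBP10, a procollagen chaperone, stood at 4.42 and 4.27 against -1.73 and -1.68 (6.05 ± 0.09, adjusted p = 2.85e-07). The collagen chaperone SERPINH1 was higher by 2.00 ± 0.11, and the prolyl 3-hydroxylases P3H3 and P3H1 by 3.76 ± 0.10 and 1.88 ± 0.09, while P3H2 was lower (-1.89 ± 0.10). PLOD2, a lysyl hydroxylase, was lower in MIA PaCa-2 (-7.08 ± 0.82, adjusted p = 0.000425), where 1 of 2 parental arrays detected it. Of 12 tested genes for secretion and cleavage of procollagen, 5 were higher and 6 were lower, with a median of -0.28, among them MIA2, a cargo factor for bulky proteins (-2.91 ± 0.10), and ADAMTS14, a procollagen peptidase (-2.74 ± 0.31, detected on 1 of 2 parental MIA PaCa-2 arrays).

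Cross-linking enzymes ran mostly against the fibrillar collagens. Of the 5 lysyl oxidases, which join collagen molecules covalently, 4 were lower and 1 was higher in MIA PaCa-2 (median -3.70). LOXL4 stood at 1.00 and 1.16 in parental Capan-1 and was not detected in MIA PaCa-2, at least 141-fold lower (adjusted p = 9.05e-07), and LOXL1 was at least 27.7-fold lower (adjusted p = 5.76e-06). LOXL2 was the exception, at 4.47 and 4.43 in MIA PaCa-2 against -0.97 and -0.87 in Capan-1 (5.36 ± 0.08, adjusted p = 2.66e-07). Collagen receptors split evenly, with 4 higher and 4 lower of 9 tested. The discoidin receptor DDR2, which binds fibrillar collagen, was higher in MIA PaCa-2 (5.16 ± 0.28, adjusted p = 1.60e-05) with 1 of 2 parental Capan-1 arrays detecting it, and DDR1, its epithelial counterpart, was lower (-1.08 ± 0.09, adjusted p = 0.000104). ITGA2, an integrin chain for collagen, was at least 33.6-fold lower in MIA PaCa-2 (adjusted p = 2.46e-05), and ITGA10, another, was at least 15.3-fold higher (adjusted p = 2.29e-05). The endocytic collagen receptor MRC2 was higher by 3.01 ± 0.11 (adjusted p = 3.18e-06). Of 8 tested matrix proteins that bind collagen, 2 were higher, 3 were lower and 1 had probes in both directions, with SPARC at least 13.3-fold higher (adjusted p = 0.000396) and FMOD at least 14.3-fold lower in MIA PaCa-2 (adjusted p = 7.46e-07). In the siRNA comparisons 1 gene of these 5 lists passed, MIA3, a secretion factor for procollagen, through a probe other than its brightest in MIA PaCa-2. It was 1 of 12 tested genes of its list there and was higher. The lists for hydroxylation, cross-linking, receptors and matrix proteins had 17, 2, 8 and 6 tested genes. Over the array 1.17% of 19222 genes were higher, so 1 call does not set these lists apart.

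**Figure D5:**
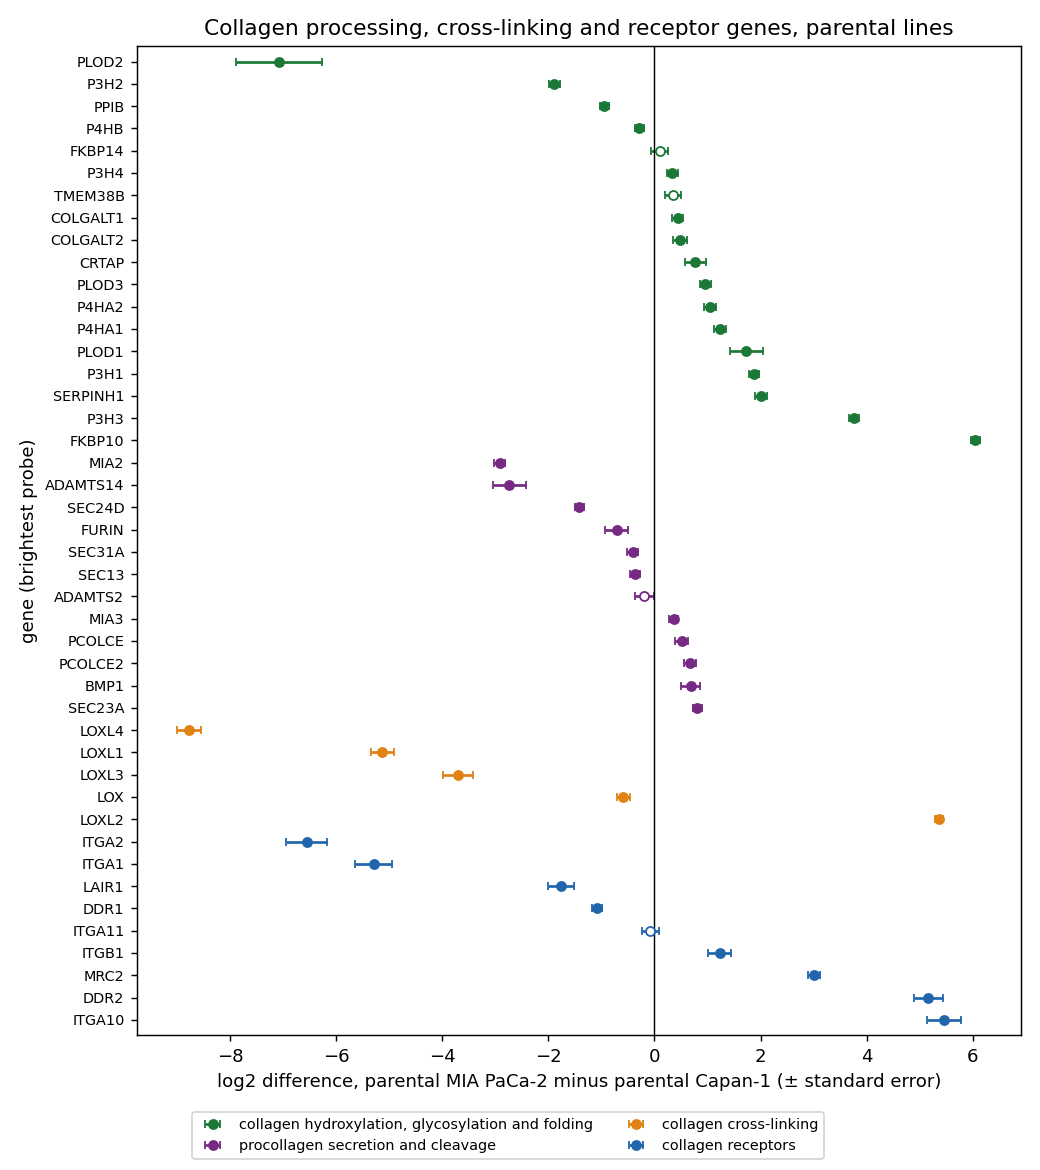
Log2 difference of parental MIA PaCa-2 minus parental Capan-1 (x axis) with its standard error, for the brightest probe of each tested gene (y axis) of 4 lists. Filled points passed an adjusted p of 0.05 by limma. FKBP10 (6.05) and P3H3 (3.76) lie furthest to the right among processing genes, and 4 of the 5 lysyl oxidases lie to the left of 0, with LOXL2 at 5.36.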

How the data were processed

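RNA of 8 samples was hybridised to one-color arrays (4 groups, 2 arrays each). The authors extracted each array with Agilent Feature Extraction 9.5.3 (version per the labels) and deposited, for each spot, its intensity after background subtraction, with its flags. A second file that the authors deposited holds log2 values, which equal the log2 of these intensities, so its arrays are unscaled. Here unflagged spots of a probe were averaged on the log2 scale and each array's 75th percentile over gene probes was subtracted. Probes were named through their accession where RefSeq held it (24827 of 34127) and otherwise by the deposited name. RefSeq promoters matched 31 of the 43 genes, with no statement on the rest.

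The means of the groups were estimated over all 8 arrays by limma (3.58.1, under R 4.3.3), with lmFit and eBayes, two-sided, with Benjamini-Hochberg adjustment over all probes tested and a threshold of 0.05. A gene was called when at least 1 probe passed in one direction and none in the other, and a gene with several probes is described by its brightest. A group without detection has only a bound, and an "at least" fold is that bound. It was taken against the lowest level well above background on each of its arrays, or the probe's own level where that was higher. A fitted difference next to it is not a bound. The adjusted p beside such a fold is that of the fitted difference by limma and does not test the bound. Intervals are 95% and cover the spread of 2 arrays per group. Values on every array were given for up to 20 collagen genes past the threshold between the parental lines by adjusted p, for the 3 largest changes per line among genes detected on all its arrays, for genes detected in 1 line alone, and for up to 6 genes of each other list. The members and gene lists were chosen with earlier results of these data known. The fit was tested on simulated data. For the parental comparison, with 25448 probes and 200 changed, 44.5% of log2 changes of 1 and 83% of log2 changes of 2 were recovered, and for MIA PaCa-2 siRNA 53.5% and 79%. Probes without a change were called 5 and 11 times in the former runs, 7 and 11 times in the latter, and 0 times where no probe was changed. Summaries and figures were made in Python 3.11.15 with pandas 2.3.3, numpy 2.4.6 and matplotlib 3.10.9, and the files were read with data.table (version 1.17.8). Alternatives covered background correction (normexp, offset 50), scaling, flagged spots, the filter, the spread, the array left out, the replicate number as a block, and an interval set to contain 99% of log2 ratios of the parental pair within windows of 1000 probes.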

Additional observations from a re-analysis of the deposited data

How the results depend on the processing

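Between the parental lines, MIA PaCa-2 had 9 lower and 14 higher collagen genes, which became 8 to 10 and 13 to 14 when each array was left out. Testing only probes detected on all 8 arrays left 4 lower and 8 higher, since it leaves out genes not detected on every array of 1 line, among them COL1A2, COL13A1, COL17A1 and COL12A1. For the 26 probes of the 20 genes with the lowest adjusted p, which were thus chosen for their strength, 503 of 508 values kept direction and call, 3 lost the call and 2 changed sign, both for the glycine-rich COL16A1 probe (-0.055 with spike-in scaling, and -0.045 to 0.35 when each array was left out, the lowest without MIA PaCa-2 parental replicate 2). Of the called genes outside these 20, COL1A1, COL4A2, COL7A1, COL9A1 and COL19A1 lost the call 12 times in all, apart from that filter. Normexp correction with offset 50 shrank differences of dim probes, from 8.58 to 6.49 for COL5A2 and from -6.26 to -1.51 for COL12A1. Spike-in scaling turned the array-wide split from 6400 lower and 8086 higher genes to 6432 and 5417, and the collagen split to 10 and 12. It moved the median difference of all probes tested from 0.11 to -0.10 between the parental lines. The median siRNA change became -0.11 for MIA PaCa-2 and -0.40 for Capan-1 with it and -0.19 and -0.16 without scaling, so the sign of an siRNA change of that size depends on the scaling. In MIA PaCa-2, 1 gene became lower with quantile normalization (COL24A1) and 1 with the filter on all 8 arrays (COL9A3), and 1 became higher with an intensity trend in the spread (COL4A2). Leaving out arrays gave 0 to 1 higher in MIA PaCa-2 and for the difference of the responses (COL6A6, without MIA PaCa-2 siRNA replicate 2), and 0 to 1 higher in Capan-1 (COL28A1, without Capan-1 siRNA replicate 2), each resting on the 1 array that detected the gene. Signs changed for COL24A1 (0.000246) and COL23A1 (0.086) in MIA PaCa-2 with normexp, for COL23A1 without MIA PaCa-2 parental replicate 2 (0.25, in a range of -1.14 to 0.25 over the arrays left out) and for COL8A2 in Capan-1 without Capan-1 siRNA replicate 1 (-0.41, in a range of -0.41 to 1.38). Except where the array left out or the filter itself shows it, the cause was not tested. The replicate numbers did not pair the samples (correlations of deviations from -0.09 to 0.19), and a replicate block left 9 lower and 14 higher between the parental lines and 0 in the siRNA comparisons, while the array-wide counts in MIA PaCa-2 fell from 215 and 225 to 12 and 7. With the MIA PaCa-2 arrays fitted alone they fell to 0 and 0. The array-wide shares set beside the 0 collagen calls in MIA PaCa-2 thus rest on a spread shared with Capan-1. Near background, 2 arrays of a group could disagree on detection.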
